A study of Mus musculus with 6 samples.

Results

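The 10 genes described here encode 7 Toll-like receptors (*Tlr1*, *Tlr2*, *Tlr3*, *Tlr4*, *Tlr7*, *Tlr9* and *Tlr13*), the co-receptor proteins *Ly86* and *Ly96*, and the adaptor *Myd88*. They were chosen by gene symbol from a table of 33000 genes, and each symbol occurred in 1 row. Frontal cortex was taken from 3 wild-type (WT) C57BL/6 mice and from 3 homozygous GFAP-IL6 mice of the same strain, all aged 3 months, and 1 TruSeq mRNA library was sequenced per mouse. The GFAP-IL6 transgene drives the cytokine IL6 from the promoter of the astrocyte gene *Gfap*, which directs the cytokine to astrocytes in every GFAP-IL6 mouse here. The labels name no other allele and no treatment in either group.

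Toll-like receptors are sensors of microbial molecules and of material from damaged cells. TLR1, TLR2, TLR4 and TLR6 sit at the cell surface and bind bacterial lipoproteins or lipopolysaccharide, whereas TLR3, TLR7, TLR9 and TLR13 sit in endosomes and bind nucleic acids. LY96 (MD-2) is the part of the TLR4 complex that holds lipopolysaccharide, and LY86 (MD-1) is the partner of the TLR-like protein CD180. MYD88 couples nearly every Toll-like receptor to NF-kB, TLR3 being the exception. In brain these genes are known chiefly from microglia, the resident macrophages, and *Tlr3* is also expressed by astrocytes and neurons.

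Total counts were 11.6 to 16.9 M in WT and 7.56 to 11.1 M in GFAP-IL6, so each GFAP-IL6 library was shallower than each WT library (p = 0.1 in an exact permutation test, two-sided, and no lower value is possible with 3 libraries a side). As a check of the labels, *Il6* was counted 0, 2 and 0 times in the WT libraries against 12, 10 and 24 times in the GFAP-IL6 libraries. The tissue was checked with marker lists. The summed level of 7 cortical neuron markers was 6986 to 7386 CPM in WT and 5997 to 6927 CPM in GFAP-IL6. The GFAP-IL6 sums were thus lower with no overlap, although none of the 7 passed the test. CPM are counts of a gene divided by the library total in M, scaled by the TMM method, and suit comparison of 1 gene between libraries. TPM are also divided by gene length and were used to compare genes with each other.

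Of the 10 members, 5 rose in GFAP-IL6 cortex: *Ly86*, *Tlr1*, *Tlr2*, *Tlr9* and *Tlr13*. *Ly86*, the CD180 partner, rose 3.77-fold, the lipoprotein receptors *Tlr1* and *Tlr2* rose 4.46-fold and 2.96-fold, and the endosomal receptors *Tlr9* and *Tlr13* rose 2.85-fold and 2.79-fold. The other 5 did not pass: *Tlr4*, *Tlr7*, *Tlr3* and *Myd88* were tested without reaching the threshold, and *Ly96* had too few counts to be tested. A gene was called at an adjusted p under 0.05 by the quasi-likelihood test of edgeR, adjusted over all 15341 genes tested. In that test 2.65% of all genes were called as higher, and no member was called as lower. All 5 members called also had a log2 fold change over 1, the size threshold used by the study, which 1.36% of all genes passed upward. In 8 of the 9 members tested every GFAP-IL6 library lay above every WT library in CPM, as in 13.8% of all genes tested. The same held for *Ly96*, and *Tlr3* was the exception. *Tlr1* and *Tlr2*, counted in the 8 and among the 5 called, entered the test through their GFAP-IL6 libraries. For *Tlr1* no WT library reached the level that the low-count filter asked for, so its separation was fixed by entering the test. Without GFAP-IL6 replicate 3, 3 members were called. *Tlr2* (log2 fold change 1.32, adjusted p = 0.128, edgeR) and *Tlr9* (1.42, adjusted p = 0.0866, edgeR) then missed the threshold, in a fit whose calls over all genes went from 439 to 187.

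**Figure D1:**
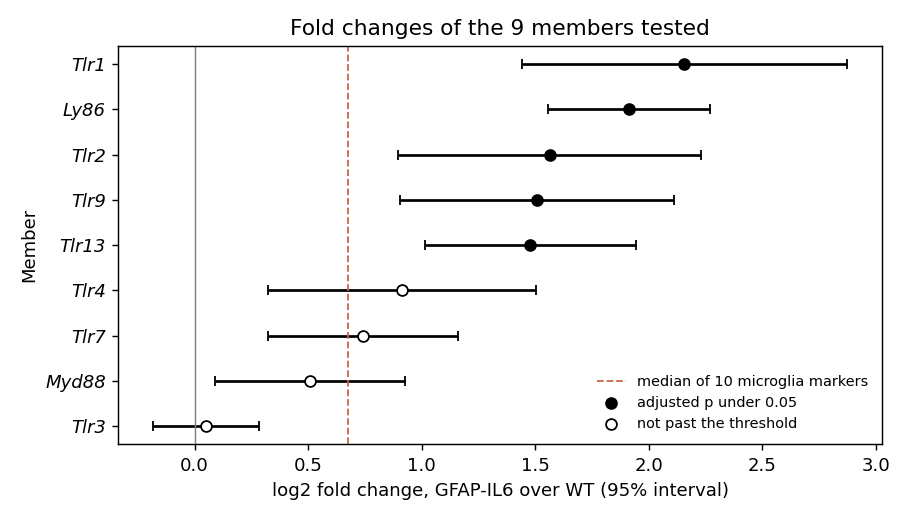
The log2 fold change of GFAP-IL6 over WT (x axis) is plotted for the 9 members tested (y axis) with its 95% interval. Filled points are past an adjusted p of 0.05, open points are not, and the dashed line is the median of 10 microglia markers (0.68). The interval of *Tlr3* spans 0. The intervals of the 5 filled points lie above the dashed line, but these points were picked by this same test. Their place is thus no test against the microglia markers.

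The regions around the start sites of the 5 members that rose are given here to let the genes that moved together be read side by side. Each runs 5′ to 3′ on the strand of the gene, from 250 bases before to 50 bases after the start (RefSeq, GRCm38.p6), and capitals mark matches to any of 3 motifs searched on both strands. The motifs were the core of PU.1, a transcription factor of macrophages (GAGGAA), the site of STAT factors, which act downstream of IL6 receptors (TTCNNNGAA), and the consensus site of NF-kB. *Tlr1* lies on chr5:64933509-64933808, minus strand; *Tlr2* on chr3:83841559-83841858, minus strand; *Tlr9* on chr9:106222348-106222647, plus strand; *Tlr13* on chrX:106143025-106143324, plus strand; and *Ly86* on chr13:37345095-37345394, plus strand.
Tlr1: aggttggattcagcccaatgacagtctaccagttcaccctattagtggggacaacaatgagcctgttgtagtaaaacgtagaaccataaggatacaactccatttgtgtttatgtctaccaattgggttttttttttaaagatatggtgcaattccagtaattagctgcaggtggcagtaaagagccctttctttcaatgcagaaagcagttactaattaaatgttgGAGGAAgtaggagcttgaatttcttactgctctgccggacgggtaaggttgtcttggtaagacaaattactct
Tlr2: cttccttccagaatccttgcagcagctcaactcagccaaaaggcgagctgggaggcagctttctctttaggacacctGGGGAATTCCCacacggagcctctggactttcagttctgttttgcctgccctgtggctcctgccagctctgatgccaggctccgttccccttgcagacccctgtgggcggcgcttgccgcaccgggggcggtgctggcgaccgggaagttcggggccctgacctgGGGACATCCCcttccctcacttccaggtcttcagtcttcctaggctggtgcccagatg
Tlr9: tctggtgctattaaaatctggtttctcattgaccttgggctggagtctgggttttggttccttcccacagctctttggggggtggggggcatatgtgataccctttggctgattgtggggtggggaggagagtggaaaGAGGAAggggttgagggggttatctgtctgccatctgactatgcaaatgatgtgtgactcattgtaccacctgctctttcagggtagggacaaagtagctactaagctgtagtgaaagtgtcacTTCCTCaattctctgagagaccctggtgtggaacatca
Tlr13: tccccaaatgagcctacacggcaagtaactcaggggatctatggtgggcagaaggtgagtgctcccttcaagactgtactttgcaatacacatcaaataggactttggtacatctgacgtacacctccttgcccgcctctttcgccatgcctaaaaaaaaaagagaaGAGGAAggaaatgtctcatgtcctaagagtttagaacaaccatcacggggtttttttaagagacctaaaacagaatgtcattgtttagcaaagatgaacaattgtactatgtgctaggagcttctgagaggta
Ly86: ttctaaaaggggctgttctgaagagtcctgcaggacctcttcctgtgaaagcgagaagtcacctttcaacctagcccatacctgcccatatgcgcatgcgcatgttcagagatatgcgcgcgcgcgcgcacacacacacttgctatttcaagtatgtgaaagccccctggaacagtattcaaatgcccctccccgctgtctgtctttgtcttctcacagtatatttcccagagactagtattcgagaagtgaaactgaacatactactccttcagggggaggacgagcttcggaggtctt

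The capitals are a PU.1 core in *Tlr1*, *Tlr9* and *Tlr13*, on both strands in *Tlr9*, and NF-kB consensus letters in *Tlr2*. *Ly86* held none of the 3 motifs in this window. Regions were found for 7 members, not for *Tlr4*, *Tlr7* and *Ly96*. The PU.1 core occurred in 3 of the 7 and in 28.3% of all 32851 promoters of this length. A member was counted if any of its start regions matched, whereas all promoters were counted singly, so the shares are not of like units. The NF-kB consensus occurred in *Tlr2* and *Tlr3*, against 8.46% of all promoters. The STAT motif occurred in *Myd88* and in a second annotated start region of *Tlr1*, against 8.30% of all promoters. In the regions searched no match to one motif overlapped a match to another. The motifs were picked with the sequences and the fold changes known, and a match is a string of letters, not a measured binding site.

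The surface receptors for lipoproteins act as pairs, TLR2 with TLR1 or with TLR6. *Tlr1* (ENSMUSG00000044827.8, chromosome 5, 64924679 to 64933563, minus strand) had 0.436, 0.656 and 0.565 CPM in the WT libraries and 2.60, 1.85 and 3.13 CPM in the GFAP-IL6 libraries. The lowest GFAP-IL6 library was thus well above the highest WT library. The log2 fold change of *Tlr1* was 2.16 ± 0.33 (SE, n = 3 each), with an adjusted p of 0.00245 by edgeR. *Tlr2* (ENSMUSG00000027995.10, chromosome 3, 83836272 to 83841767, minus strand) had 0.784, 1.13 and 1.51 CPM in WT and 3.05, 2.77 and 4.58 CPM in GFAP-IL6. These groups did not overlap either, and GFAP-IL6 replicate 3 was the highest library for both genes. For *Tlr2* the log2 fold change was 1.56 ± 0.31 (SE, n = 3 each), with an adjusted p of 0.0140 by edgeR. Both genes entered the test through their GFAP-IL6 libraries, since not all of their WT libraries reached the 0.882 CPM that the low-count filter asked for in at least 3 libraries. A gene that enters this way is already higher in that group.

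*Tlr6*, the alternative partner of *Tlr2*, had 0.697, 0.656 and 0.691 CPM in WT and 1.08, 1.19 and 1.005 CPM in GFAP-IL6. The groups were apart, but its log2 fold change of 0.67 (95% interval -0.06 to 1.40) did not pass the test, with an adjusted p of 0.285 by edgeR. Its WT libraries were all under the 0.882 CPM that the low-count filter asked for. *Tlr6* thus entered the test through its GFAP-IL6 libraries, and the gap between its groups was fixed by that filter. *Tlr1* and *Tlr6* have similar sequences. Of 3332 windows of 50 bases in *Tlr1* transcripts, 454 also occurred in transcripts of *Tlr6*, and reads from these stretches may have been left out or split. No 50-base window of another member occurred in a Toll-like receptor outside itself.

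TLR4 and LY96 together form the lipopolysaccharide receptor. *Tlr4* (ENSMUSG00000039005.11, chromosome 4, 66827584 to 66930284, plus strand) had 1.31, 1.91 and 1.63 CPM in WT and 2.42, 3.17 and 3.80 CPM in GFAP-IL6. Every GFAP-IL6 library was above every WT library. Its log2 fold change of 0.91 (95% interval 0.33 to 1.5) did not pass, with an adjusted p of 0.0990 by edgeR. *Ly96* (ENSMUSG00000025779.8, chromosome 1, 16688051 to 16709611, plus strand) was counted 7, 13 and 10 times in WT against 13, 6 and 10 times in GFAP-IL6. In CPM this was 0.610, 0.775 and 0.628 against 1.17, 0.792 and 1.12, so the groups touched without overlapping. *Ly96* was removed by the low-count filter, and without this filter its log2 fold change was 0.61 with an adjusted p of 0.535 by edgeR. *Cd14*, which passes lipopolysaccharide to the TLR4 and LY96 complex, rose from 2.15 ± 0.365 to 4.89 ± 0.926 CPM (SD, n = 3 each; adjusted p = 0.0168, edgeR).

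*Ly86* (ENSMUSG00000021423.5, chromosome 13, 37345208 to 37419036, plus strand) had the smallest adjusted p of the members. Its level was 6.10, 10.3 and 7.85 CPM in the WT libraries and 33.8, 26.4 and 32.0 CPM in the GFAP-IL6 libraries. The lowest GFAP-IL6 library was thus above every WT library by a wide gap. For *Ly86* the log2 fold change was 1.91 ± 0.16 (SE, n = 3 each), with an adjusted p of 2.4e-05 by edgeR. *Cd180*, which encodes the receptor that LY86 binds, rose as well, from 3.64 ± 0.373 to 7.68 ± 1.29 CPM (SD, n = 3 each; adjusted p = 0.00713, edgeR). The 95% interval of the log2 fold change was 0.66 to 1.49 around 1.07 for *Cd180* and 1.56 to 2.27 for *Ly86*. The CD180 and LY86 complex is known as a modulator of TLR4 responses and of B cell activation.

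Of the 4 nucleic acid receptors of the endosome, 2 rose. *Tlr9* (ENSMUSG00000045322.10, chromosome 9, 106222598 to 106226883, plus strand), which binds unmethylated CpG DNA, had 2.09, 1.01 and 2.07 CPM in WT and 4.57, 4.49 and 5.47 CPM in GFAP-IL6. On the log2 scale *Tlr9* was higher by 1.51 ± 0.28 (SE, n = 3 each), with an adjusted p of 0.00954 by edgeR. WT replicate 2 had a lower level than the other WT libraries, and the log2 fold change was 1.21 without it. *Tlr13* (ENSMUSG00000033777.3, chromosome X, 106143204 to 106160493, plus strand), a receptor for bacterial ribosomal RNA that people lack, had 3.22, 2.86 and 3.01 CPM in WT and 7.71, 6.60 and 10.9 CPM in GFAP-IL6. The WT libraries were close together and the GFAP-IL6 libraries all lay above them. For *Tlr13* the log2 fold change was 1.48 ± 0.21 (SE, n = 3 each), with an adjusted p of 0.00161 by edgeR.

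*Tlr7* (ENSMUSG00000044583.11, chromosome X, 167304929 to 167330558, minus strand), which binds single-stranded RNA, had 3.92, 4.53 and 4.96 CPM in WT and 6.63, 9.38 and 6.81 CPM in GFAP-IL6. The groups were apart, with GFAP-IL6 replicate 2 the highest. Its log2 fold change of 0.74 (95% interval 0.32 to 1.16) did not pass, with an adjusted p of 0.0624 by edgeR. *Tlr7* was called after all libraries were thinned to the smallest total (adjusted p = 0.0262, edgeR).

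*Tlr3* (ENSMUSG00000031639.9, chromosome 8, 45395665 to 45411080, minus strand), the receptor for double-stranded RNA, was the member whose groups overlapped. It had 19.3, 16.9 and 18.1 CPM in WT and 17.7, 19.1 and 19.5 CPM in GFAP-IL6. Between the groups the log2 fold change was 0.05 (95% interval -0.18 to 0.28), with an adjusted p of 0.821 by edgeR. Its counts, 145 to 289 per library, were higher than those of any other receptor of the 10. Of the exon bases annotated for *Tlr3*, 7.32% lie in exons of *Gm45542* on the opposite strand. *Unc93b1*, which carries TLR3, TLR7, TLR9 and TLR13 to the endosome, rose from 12.8 ± 1.16 to 34.4 ± 5.56 CPM (SD, n = 3 each; adjusted p = 4.0e-05, edgeR), a 2.67-fold change.

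*Myd88* (ENSMUSG00000032508.8, chromosome 9, 119335934 to 119341411, minus strand), the shared adaptor, had 5.84, 4.18 and 5.84 CPM in WT and 6.63, 7.13 and 8.71 CPM in GFAP-IL6. The groups did not overlap, although the gap between them was small. Its log2 fold change of 0.51 (95% interval 0.09 to 0.93) did not pass, with an adjusted p of 0.173 by edgeR. Of its annotated exon bases, 11.3% overlap those of *Acaa1a* on the opposite strand, and the study does not say whether strand was used in counting.

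Levels were then ranked per length, in TPM. In WT the order was *Ly86* (22.3 ± 5.14 TPM), *Tlr3* (11.5 ± 1.09), *Myd88* (7.51 ± 1.54), *Tlr7* (3.13 ± 0.331), *Ly96* (2.94 ± 0.315), *Tlr13* (2.08 ± 0.184), *Tlr9* (1.39 ± 0.521), *Tlr2* (1.05 ± 0.325), *Tlr4* (0.817 ± 0.129) and *Tlr1* (0.489 ± 0.0847 TPM; SD, n = 3 each). Neighbours in this order were separated in all libraries except *Tlr7* from *Ly96*, *Tlr9* from *Tlr2* and *Tlr2* from *Tlr4*. In GFAP-IL6 *Ly86* reached 90.0 ± 11.99 TPM and *Tlr3* and *Myd88* followed at 12.5 ± 0.549 and 11.1 ± 1.55 TPM (SD, n = 3 each), with overlapping ranges. The remaining members ranged from 1.67 ± 0.356 TPM for *Tlr4* to 6.04 ± 1.61 TPM for *Tlr13* (SD, n = 3 each), and none of these neighbours was separated in all libraries. *Tlr13* had moved above *Tlr7* in mean TPM, and *Tlr1* above *Tlr4*. The places of *Ly86* and *Ly96* depend on their lengths. For *Ly86* the table gives 997 bases, whereas GENCODE M21 gives 3632 exon bases, with which its level would be 6.14 ± 1.41 TPM in WT and 24.7 ± 3.29 TPM in GFAP-IL6 (SD, n = 3 each). With the M21 lengths *Ly86* would be below *Tlr3* (9.68 ± 0.922 TPM) in WT and above it (10.5 ± 0.463 TPM) in GFAP-IL6. *Ly96*, given 632 bases in the table and 1021 in M21, would be at 1.82 ± 0.195 TPM in WT, below *Tlr13* at 1.96 ± 0.174 TPM (SD, n = 3 each). These M21 values only rescale the same counts and were not renormalised over all genes. Reads from exon bases missing in the authors' annotation would not be among those counts, so the M21 values may be too low. They are not measured levels and do not settle the order.

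**Figure D2:**
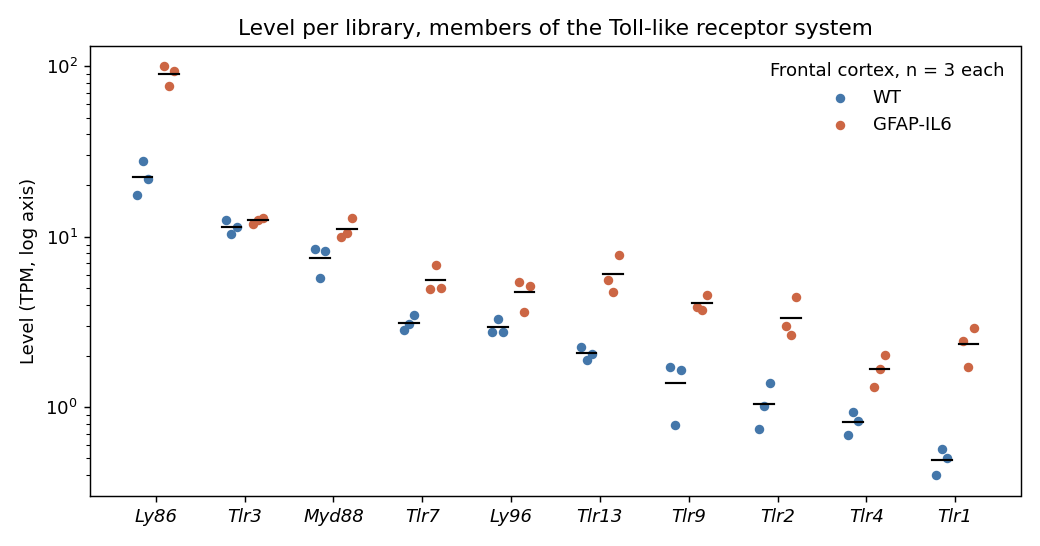
Points give the level of each member in each library in TPM on a log axis, with WT in blue and GFAP-IL6 in orange, and black bars are arithmetic means of 3 libraries. *Ly86* is highest in both groups with the lengths of the deposited table. Its place against *Tlr3* in WT depends on the length used, and rescaling to GENCODE M21 lengths does not settle it. *Tlr3* is the member whose CPM ranges overlap, while *Tlr1* goes from the lowest mean in WT (0.489 TPM) to above *Tlr4* in GFAP-IL6.

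The rest of the pathway was read from 7 lists of 63 genes, of which 47 were tested. Of these 6 rose and 0 fell, where 2.65% of all genes tested were called as higher. Their median log2 fold change was 0.19, beside -0.00 for all genes tested and 1.48 for the 9 members tested. Among 8 co-receptor and trafficking genes 7 were tested and 3 rose, the *Cd14*, *Cd180* and *Unc93b1* already described, with a list median of 0.28. Without GFAP-IL6 replicate 3, 3 of the pathway genes in these lists were called. Among 5 further adaptors 4 were tested and 1 rose. This was *Pik3ap1*, which links Toll-like receptors to PI3 kinase, from 2.67 ± 0.428 to 8.97 ± 3.74 CPM (SD, n = 3 each; adjusted p = 0.00359, edgeR). The list median was 0.36. Of 5 other Toll-like receptors only *Tlr6* and *Tlr12* were tested, and neither passed. *Tlr12* had a log2 fold change of 0.17 (adjusted p = 0.839, edgeR), *Tlr11* had at most 1 count and *Tlr8* at most 5 counts in any library.

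The shared kinases and ubiquitin ligases carry the signal from the adaptors to NF-kB and the interferon factors. All 16 were tested, none passed, and their median log2 fold change was 0.07 with a range from -0.24 to 0.36. The smallest adjusted p values by edgeR were 0.201 for *Ube2n* (log2 fold change -0.24), 0.214 for *Ikbkb* (0.18), 0.321 for *Traf3* (0.21) and 0.400 for *Tbk1* (-0.12). Of 7 transcription factors 1 rose, *Irf8*, a factor that microglia require, from 4.58 ± 0.456 to 12.1 ± 1.77 CPM (SD, n = 3 each; adjusted p = 0.000389, edgeR). The median of that list was 0.50, and all 7 had GFAP-IL6 libraries above all WT libraries, as had 13.8% of all genes tested. Of 10 negative regulators 9 were tested and 1 rose. *Sigirr*, a receptor that restrains signalling of Toll-like and IL1 receptors, went from 0.962 ± 0.111 to 2.64 ± 0.349 CPM (SD, n = 3 each; adjusted p = 0.0105, edgeR). Like *Tlr1* and *Tlr2*, it passed the low-count filter through its GFAP-IL6 libraries, since WT replicate 2 was under the 0.882 CPM asked for. That list had a median of 0.13. Beside the 1 factor and 1 negative regulator called, 2.65% of all genes tested were called as higher.

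Of 12 textbook output genes of the pathway, 10 had too few counts for a test. The chemokine *Ccl5* was counted 0, 2 and 0 times in WT against 3, 5 and 5 times in GFAP-IL6, and *Ccl3* was counted 3, 5 and 2 times against 1, 0 and 1 times, so their groups did not overlap in CPM, in opposite directions. *Tnf* had at most 4 counts, *Il1b* at most 10 and *Ifnb1* 0 counts in every library, for which a count of 0 allows up to 3 counts, or between 0.179 and 0.396 CPM. Such limits cover counting error only. The tested genes *Ptgs2* and *Nfkbiz* had log2 fold changes of 0.44 (95% interval 0.18 to 0.71; adjusted p = 0.0780, edgeR) and 0.39 (0.03 to 0.76; adjusted p = 0.209, edgeR), and neither passed.

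**Figure D3:**
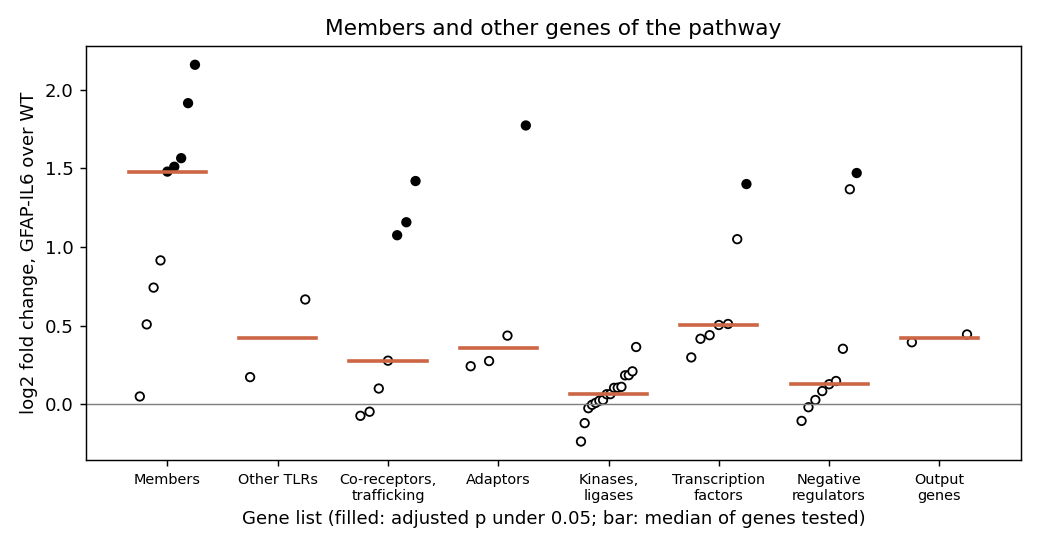
Log2 fold changes of GFAP-IL6 over WT (y axis) are shown for the members and 7 lists of other pathway genes (x axis), with 1 point per gene tested, filled where the adjusted p is under 0.05, and an orange bar at the list median. The kinases and ligases lie close to 0 (median 0.07), and the filled points are the 5 members and 6 other genes.

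Markers of microglia, the cells from which these genes are chiefly known in brain, were read as well. The summed level of 10 microglia markers was 398 to 499 CPM in WT and 670 to 771 CPM in GFAP-IL6, with no overlap. Of the 10, 6 rose, among them *Csf1r* (log2 fold change 0.87), *Tmem119* (0.81) and *Cx3cr1* (0.63), and 0 fell. Over all genes tested 2.65% were called as higher. *P2ry12* and *Gpr34* had log2 fold changes of -0.27 and -0.22 and did not pass. In bulk tissue, more cells of a type and more RNA per cell cannot be told apart. The part of microglia number in the members' changes was not tested.

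Other cell types were read in the same way. The 12 markers of blood-derived leukocytes summed to 10.02 to 11.1 CPM in WT and 13.1 to 14.2 CPM in GFAP-IL6, and the 1 that was tested did not pass. Of these 12, 7 never exceeded 3 counts in a library, and *Flt3* supplied most of the sum. Of the T cell markers, *Cd3d* had 0 counts in all 6 libraries, whereas *Cd3e* had 0 counts in each WT library and 3, 1 and 2 in the GFAP-IL6 libraries. The cytotoxic cell marker *Nkg7* was counted 0, 1 and 0 times in WT against 1, 2 and 1 times in GFAP-IL6. The monocyte receptor *Ccr2* was counted 2, 11 and 8 times in WT against 14, 5 and 13 times in GFAP-IL6. In CPM this was 0.174, 0.656 and 0.502 against 1.25, 0.660 and 1.45, without overlap, and *Ccr2* was too low to be tested. The 6 markers of border macrophages summed to 7.53 to 13 CPM in WT and 9.14 to 14.96 CPM in GFAP-IL6, with overlap and no call in the 4 tested. Of 4 endothelial markers 3 rose, beside the 2.65% of all genes tested that were called as higher. The sum of the 4 went from 87.7 to 107 CPM in WT to 154 to 179 CPM in GFAP-IL6. Of 6 astrocyte markers 1 rose, *Gfap*, whose promoter drives the transgene (log2 fold change 2.84), and the list median was 0.09. None of 4 oligodendrocyte markers passed, with a list median of -0.23. The part of these cell types in the members' changes was not tested.

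The 7 members with at least 10 counts in every library were also expressed per 1000 counts of the summed microglia markers. *Ly86* stood at 15.3, 20.5 and 16.7 in WT and at 49.8, 39.4 and 41.6 in GFAP-IL6 on this scale. *Tlr13* went from 8.09, 5.73 and 6.43 to 11.4, 9.86 and 14.2. *Tlr9* went from 5.25, 2.03 and 4.42 to 6.73, 6.71 and 7.09. For these genes every GFAP-IL6 library was thus still above every WT library after division by the markers. The log2 ratios were 1.32 for *Ly86*, 0.80 for *Tlr13* and 0.92 for *Tlr9*. Leaving out 1 library gave 1.22 to 1.44 for *Ly86*, 0.66 to 0.94 for *Tlr13* and 0.51 to 1.19 for *Tlr9*. The lowest *Tlr9* value was that without WT replicate 2. *Tlr3* was placed the other way. It had 48.5, 33.9 and 38.7 in WT and 26.0, 28.6 and 25.3 in GFAP-IL6, a log2 ratio of -0.59 with no overlap. *Tlr4*, *Tlr7* and *Myd88* overlapped between groups, with log2 ratios of 0.31, 0.12 and -0.13. The exact two-sided permutation p was 0.1 for each of the 4 genes without overlap, the smallest that 3 against 3 libraries allow, and 0.175 after Benjamini-Hochberg adjustment over the 7 genes. None of the 7 therefore passed.

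**Figure D4:**
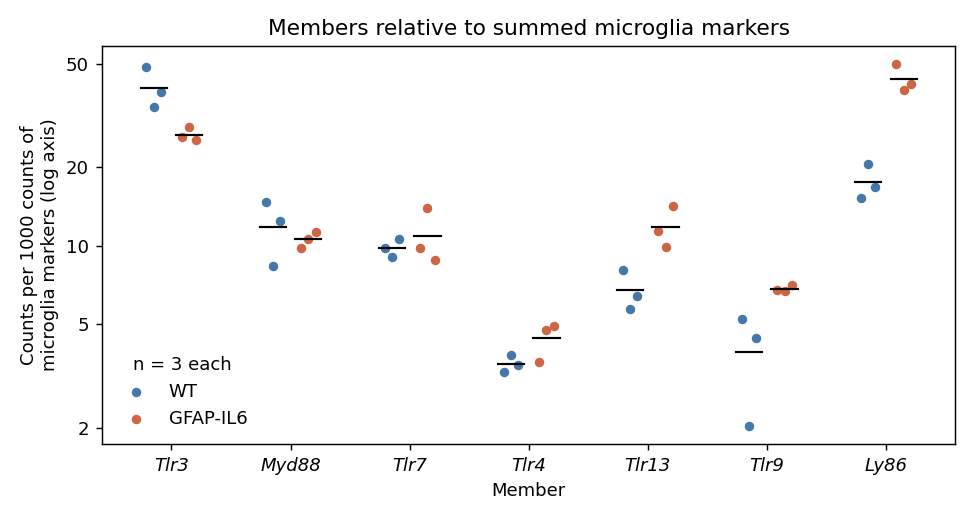
Counts of 7 members per 1000 summed counts of 10 microglia markers (y axis, log scale) are plotted by member, with WT in blue, GFAP-IL6 in orange and black bars at the means of 3 libraries. *Ly86*, *Tlr9* and *Tlr13* have GFAP-IL6 points above all WT points, *Tlr3* has them below, and *Tlr4*, *Tlr7* and *Myd88* overlap.

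The genes whose levels over the 6 libraries were most like those of the 5 members that rose were found by Pearson's r of log2(CPM + 0.5) among 15025 genes. For *Ly86* they were *Fcer1g* (0.998), *Grn* (0.997) and *Lair1* (0.996). For *Tlr1* they were *Icam1* (0.998), *C3* (0.997) and *Cd180* (0.996), and for *Tlr13* they were *Tifab* (0.998), *Aspg* (0.998) and *Tnfrsf1a* (0.996). For *Tlr2* they were *Ptbp1* (0.997), *Slc14a1* (0.996) and *Capg* (0.995), and for *Tlr9* they were *Gltscr1l* (0.996), *Dnhd1* (0.996) and *Mir124a-1hg* (0.995). The 6 points form a WT and a GFAP-IL6 cluster, so r largely reflects the difference between the groups, and between 189 and 279 genes had an r over 0.95 with each member. The values are a description with no test.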

How the data were processed

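Cortical total RNA was sequenced as TruSeq mRNA libraries in 6 mice, 3 per genotype. According to the study's methods, mouse reads were aligned to mm10 with STAR 2.4 and assigned to GENCODE M6 genes with featureCounts. The labels of these mouse libraries list a human build, hg19, and mm10 was taken because the gene IDs are mouse GENCODE IDs. The strand setting is not given in the sources used here. The deposited table holds raw counts for 33000 genes. The authors' gene lengths in it were used for TPM. Columns of other samples used: 0.

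Counts were filtered (filterByExpr), scaled by TMM and tested with the quasi-likelihood test of edgeR 4.0.16 in R 4.3.3, with Benjamini-Hochberg adjustment over 15341 genes. A gene was called at an adjusted p under 0.05. On simulated data this step recovered 87% of 2-fold and 100% of 4-fold changes for WT against GFAP-IL6 among 15388 genes, with 5.56% false calls. The changes were planted only in genes above a minimum mean count, which *Tlr1*, *Tlr2*, *Tlr4* and *Ly96* do not reach. The recovery rates therefore do not cover these low members. Alternatives were RLE size factors, no filter, a mean of at least 1 CPM, DESeq2 1.42.0, voom in limma 3.58.1, a replicate block, thinning to the smallest library, and leaving out each library. The chi-square per degree of freedom of the 15 library pairs was 2.23 to 20.1, so no library was a repeat of another within sampling noise. Positions come from GENCODE M21 (GRCm38), where 32593 gene IDs matched.

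The members, lists of other pathway genes and marker lists were chosen with earlier results of these data known. All members were named, and from each pathway list the genes called or, where none was, the 4 with the smallest adjusted p. Genes too low to test and single markers were named after their values were seen. The motifs, the *Ly86* length and the *Ly96* refits were chosen after seeing the data. Of the markers, 1 is not reported here by name.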

Additional observations from a re-analysis of the deposited data

How the results depend on the processing

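Each of the 9 members tested kept the direction of its log2 fold change in the 13 alternative fits. The range of adjusted p over them was 1.1e-22 to 0.000779 for *Ly86*, 2.6e-05 to 0.0311 for *Tlr1*, 1.5e-07 to 0.0138 for *Tlr13*, 0.000254 to 0.128 for *Tlr2*, 3.4e-05 to 0.0866 for *Tlr9*, 0.0112 to 0.202 for *Tlr7* and 0.0475 to 0.381 for *Tlr4* (edgeR, DESeq2 or limma). Leaving out 1 library gave 3 to 5 members called, 3 to 5 past the size threshold as well, and 3 to 7 other pathway genes called, the lowest values being those without GFAP-IL6 replicate 3. With no low-count filter 13 other pathway genes were called (main value 6), and *Tlr4* (adjusted p = 0.0475, edgeR) and *Tlr7* (0.0112) passed the threshold. *Tlr7* passed also after a single random thinning (0.0262). The log2 ratio to microglia markers reversed for *Tlr7* without GFAP-IL6 replicate 2 (-0.079, within a range of -0.079 to 0.253 over the libraries left out) and for *Myd88* without WT replicate 1 (0.048, within -0.356 to 0.048). The cause was not tested.

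The correlation of same-numbered deviations was weak, 0.0172 to 0.112, and over 0.1 in 1 of 3 pairs. Between mice of different numbers it was -0.0860 to 0.0520. With 3 pairs such values cannot tell whether the replicate numbers pair the mice. With the replicate block 10 other pathway genes were called and *Tlr7* passed (adjusted p = 0.0410, edgeR). Calls over all genes were 439 in the main test, 1154 with no filter, 750 with the replicate block, 1061 without WT replicate 1 and 187 without GFAP-IL6 replicate 3. Depth limits the members under 1 CPM in WT (*Tlr1* and *Ly96*), where a few counts set the level.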
